A study of Mus musculus with 27 samples.

Results

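Mouse embryonic stem cells (mESCs) were compared with the gastruloids grown from the same pre-culture, for the 3 pre-culture conditions in which both were sequenced (conditions 1, 5 and 6). Every listed cell of these conditions was taken: 2086 mESCs from 6 plates and 4637 gastruloid cells from 15 single gastruloids, together 6723 of the 8784 cells and 21 of the 27 samples of the series. All cells came from the B6 line, an mESC line from a cross of 129S1/SvImJ and C57BL/6 mice. In condition 1 the mESCs were kept in ESLIF, a medium with serum and the cytokine LIF. In condition 5 they spent 48 h in 2i, a medium in which inhibitors of MEK and GSK3 are combined with LIF, before 48 h in ESLIF, and in condition 6 both steps lasted 24 h. Gastruloids were aggregated from these cells, received a pulse of the Wnt activator chiron between 48 h and 72 h and were dissociated at 120 h after aggregation. The 2 mESC plates of a condition were technical replicates of a single culture, and each of the 5 gastruloids of a condition filled a plate of its own. Whether gastruloids and sequenced mESCs of a condition shared a culture is not given in the sources used here. Genes were not measured separately in the tables used here, so the compared quantities are cell cycle phase, total counts, detected genes and mitochondrial share per cell, and the named cell types could not be checked against their markers.

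A dividing cell passes through a gap phase (G1), copies its DNA in S phase, and enters mitosis after a second gap (G2M). Mouse ES cells in serum and LIF are known for a very short G1, and G1 lengthens as cells of the embryo specialise. A gastruloid is an aggregate of ES cells that breaks symmetry, elongates and forms progenitors of the body axis, among them neuromesodermal progenitors (NMPs), presomitic mesoderm, somites, spinal cord, endoderm and primordial germ cell-like cells. In sequencing data the phase is read indirectly, from an S score and a G2M score that sum up the expression of genes active in those phases. In both tables the phase of all 8784 cells followed a single rule: a cell was in G1 when both scores were below 0, and otherwise in the phase with the higher score. The G1 class is therefore the class in which neither programme stood above the zero of its score.

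The gastruloids held far more G1 cells than the mESCs, and fewer G2M cells, in every condition. The G1 share rose from 0.621% ± 0.236 (mean and SD of 3 cultures) to 6.49% ± 1.71 (SD, n = 15 gastruloids). The G2M share fell from 48.8% ± 6.98 to 37.1% ± 3.63. The mean S share was 50.6% ± 6.84 in mESCs and 56.5% ± 3.49 in gastruloids.

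Among the mESC plates, G1 cells were nearly absent. The plates of condition 1 held 0.852% and 0% in G1, those of condition 5 held 0.548% and 0.560%, and those of condition 6 held 1.11% and 0.651%, which is 13 cells among 2086. The plate without a G1 cell had 346 cells, and a count of 0 allows a share of up to 0.867%. The gastruloids of condition 1 had G1 shares of 2.91%, 3.93%, 7.38%, 6.03% and 7.95%. Those of condition 5 had 6.96%, 5.36%, 5.37%, 8.74% and 6.61%, and those of condition 6 had 5.74%, 9.43%, 6.23%, 7.59% and 7.08%. Each of the 15 gastruloids lay above both plates of its condition, and the highest plate (1.11%, 95% Wilson interval 0.434% to 2.83%, counting error only) shared part of its interval only with those of 2 gastruloids, both of condition 1. The mean difference within conditions was 5.87 percentage points (exact two-sided permutation test over 216 relabellings, p = 0.00926, the smallest this design allows, Benjamini-Hochberg adjusted p = 0.0185 over 10 measures).

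**Figure D1:**
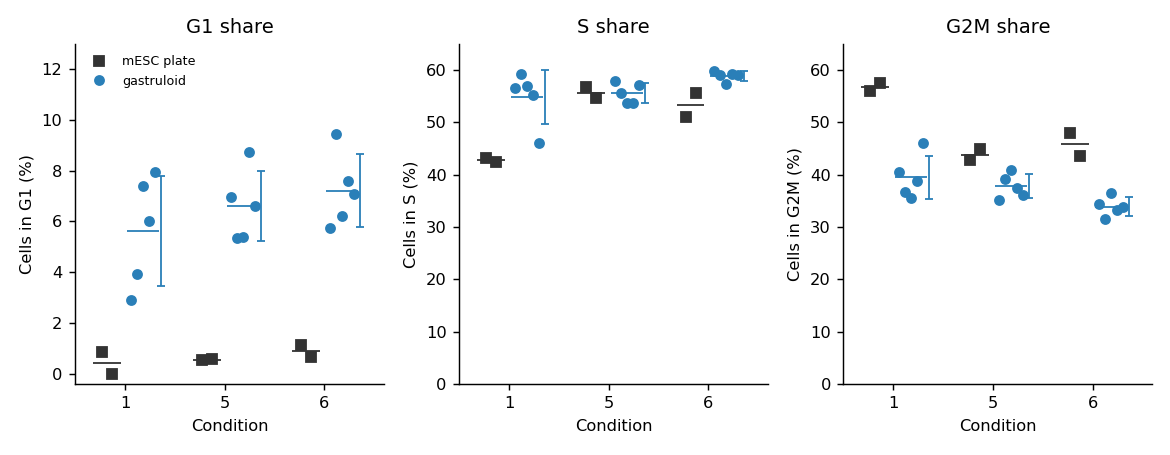
Percent of cells in G1, S and G2M (y axes) for each mESC plate (black squares) and each gastruloid (blue circles) of conditions 1, 5 and 6 (x axes). Horizontal lines are means and error bars the SD of 5 gastruloids. In G1 all 15 gastruloids, from 2.91% to 9.43%, lie above the plates, and in G2M all 15 lie below the plates of their condition.

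The G2M share of all cells separated mESCs and gastruloids in each condition as well. In condition 1 the plates held 56.0% and 57.5% and the gastruloids 40.5%, 36.7%, 35.6%, 38.7% and 46.0%. In condition 5 the plates held 42.7% and 44.8% and the gastruloids 35.1%, 39.1%, 40.9%, 37.5% and 36.2%. In condition 6 the plates held 47.9% and 43.6% and the gastruloids 34.5%, 31.4%, 36.4%, 33.2% and 33.8%. No gastruloid reached the lower plate of its condition, although the highest gastruloid of condition 1 (46.0%) stood above both plates of condition 5. The difference was −11.7 percentage points (exact permutation test, p = 0.00926, adjusted p = 0.0185, lower in 15 of 15 gastruloids). Among cells of 4000 to 16000 counts it was −8.69 points and no longer passed (exact permutation test, adjusted p = 0.0741). In those cells the change was −16.7 points in condition 1, −9.23 in condition 6 and −0.150 in condition 5, against −6.00 in condition 5 over all cells.

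The S share did not move alike in the 3 conditions. The plates of condition 1 had 43.2% and 42.5% of their cells in S, and the gastruloids 56.6%, 59.3%, 57.0%, 55.2% and 46.0%. In condition 5 the plates (56.7% and 54.6%) lay within the span of the gastruloids (57.9%, 55.6%, 53.7%, 53.7% and 57.2%). In condition 6 the plates had 51.0% and 55.7% and the gastruloids 59.8%, 59.1%, 57.3%, 59.2% and 59.1%. All gastruloids of conditions 1 and 6 were thus above their plates, while those of condition 5 fell on both sides. The mean change was 12.02 points in condition 1, −0.0543 in condition 5 and 5.56 in condition 6. Over the 3 conditions the S share differed by 5.84 points, with 12 of 15 gastruloids higher (exact permutation test, p = 0.0370, adjusted p = 0.0617), which did not pass the threshold. Among cells of 4000 to 16000 counts it was 2.77 points (exact permutation test, adjusted p = 0.613), with changes of 12.4 in condition 1, −6.45 in condition 5 and 2.41 in condition 6.

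Both scores were lower in gastruloids, and the G2M score more so. The mean S score was 0.0522 ± 0.00814 over the 3 mESC cultures and 0.0362 ± 0.00293 over the gastruloids, a difference of −0.0161. The mean G2M score was 0.0533 ± 0.00237 in mESCs and 0.0234 ± 0.00446 in gastruloids, a difference of −0.0298. Both were lower in 15 of 15 gastruloids (exact permutation test, p = 0.00926, adjusted p = 0.0185 each). Plates of mESCs ranged from 0.0499 to 0.0571 in the G2M score and gastruloids from 0.0143 to 0.0315, without overlap over all conditions.

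The sign of the scores split mESCs and gastruloids further apart than the phase names did. Both scores were above 0 in 92.8% to 96.9% of the cells of an mESC plate and in 53.1% to 72.2% of the cells of a gastruloid, a mean of 94.8% ± 1.84 (n = 6 plates) against 62.0% ± 5.41 (n = 15). Cells with only the S score above 0 made up 3.08% of mESCs and 26.7% of gastruloid cells, on average over plates and gastruloids. Cells with only the G2M score above 0 made up 1.54% and 4.84%. A gastruloid cell named S was therefore often a cell whose G2M score was not above 0, whereas nearly every mESC had both above it. Among S cells, the mean G2M score was 0.0253 to 0.0301 per mESC plate and −0.00363 to 0.00645 per gastruloid. Among G2M cells, the mean S score was 0.0266 to 0.0415 per plate and 0.0129 to 0.0197 per gastruloid.

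**Figure D2:**
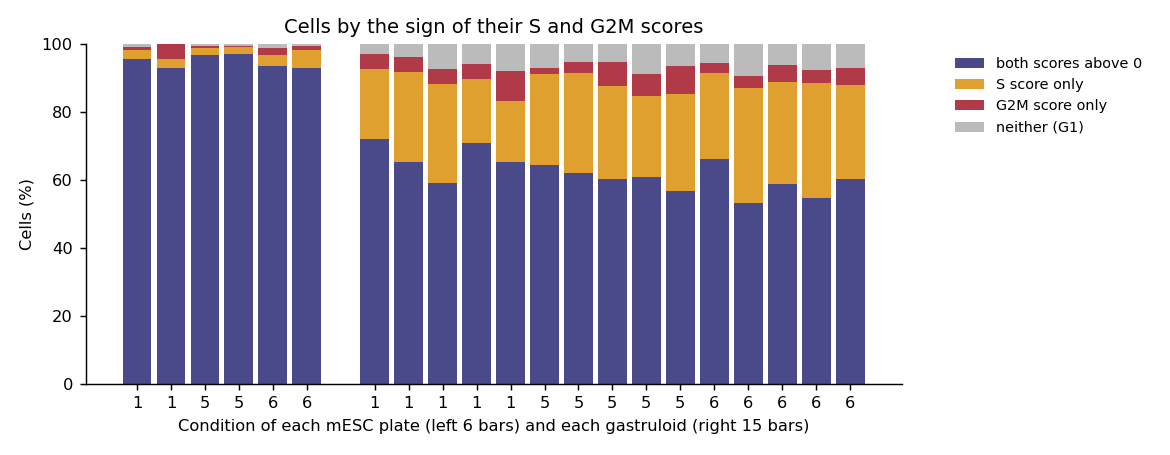
Percent of cells (y axis) with both cell cycle scores above 0, only the S score, only the G2M score, or neither, stacked to 100% for the 6 mESC plates (left) and the 15 gastruloids (right), labelled by condition. The share with both above 0 is 92.8% or more in every plate and 72.2% or less in every gastruloid.

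These score differences are bound to the zero of each score. How the scores were computed is not given in the sources used here, and whether both tables share a zero could not be checked. Few mESCs were near it: the higher of the 2 scores lay within 0.01 of 0 in 7 of 2086 mESCs (0.336%) and in 286 of 4637 gastruloid cells (6.17%). Moving the bound for G1, a choice made after seeing the data, to −0.01 gave a G1 difference of 3.15 points, and moving it to 0.01 gave 8.97 points. The bound was moved alike in mESCs and gastruloids, so these values do not show what a zero differing between the tables would do. The step of 0.01 was also smaller than the differences in mean score (−0.0161 for S and −0.0298 for G2M). Plates, the mitochondrial limit and the enzyme used for dissociation (TrypLE for mESCs, trypsin for gastruloids) also differed between mESCs and gastruloids and cannot be told apart from the developmental step. Whether mESCs and gastruloids shared sequencing runs is not given in the sources used here.

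In gastruloids, G1 cells were the cells with the fewest counts. Their median counts were 6065 ± 1035, against 8826 ± 1460 for S and 11097 ± 1826 for G2M cells (SD, n = 15). This order held within 15 of 15 gastruloids, and in 6 of 6 mESC plates G2M cells had more counts than S cells. The mESC plates held only 0 to 4 G1 cells, whose median counts lay above those of S cells on some plates and below on others. The ratio of G2M to S counts was 1.24 in mESCs and 1.26 in gastruloids, a difference of 0.0235 that did not pass (exact permutation test, adjusted p = 0.730). Gastruloid G1 shares were lower at higher counts: on average 15.3% ± 9.13 of cells under 2000 counts were in G1, 12.8% ± 7.60 of those of 2000 to 4000 counts, 12.1% ± 5.16 of 4000 to 8000, 3.25% ± 1.75 of 8000 to 16000 and 0.16% ± 0.59 above. In mESC plates the same classes held 2.16%, 0.72%, 1.73%, 0.15% and 0.34%. Below 16000 counts the gastruloid mean was thus above the mESC mean in each class, and above it both were under 1%. Among cells of 4000 to 16000 counts the G1 difference was 5.92 points (exact permutation test, adjusted p = 0.0231).

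The total counts did not separate mESCs from gastruloids. The median counts per cell were 6845 and 7873.5 on the plates of condition 1, 12660 and 11872 in condition 5, and 13669 and 7640 in condition 6. Gastruloid medians were 10467, 8355, 7947, 9296 and 7109.5 in condition 1, then 10620, 10446, 9723.5, 8649 and 7537 in condition 5, and 12135.5, 10991.5, 7898, 9739 and 8276 in condition 6. In condition 5 every gastruloid lay under both plates, in condition 1 none did, and in condition 6 all 5 lay between the 2 plates. The second plate of condition 6 had the fewest reads of the 6 mESC plates, 8696308 against 29120775 for the first. The plates of condition 1 had 17168972 and 19483881 reads, and those of condition 5 had 33416237 and 30832460. The difference over conditions was −814 counts (exact permutation test, p = 0.417, adjusted p = 0.521). It was 191 without the first mESC plate of condition 6, so 1 plate sets its sign.

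The number of detected genes per cell followed the counts. It was 4277 ± 671 over the 3 mESC cultures and 4337 ± 379 over the 15 gastruloids, a difference of 59.9 genes (exact permutation test, p = 0.843, adjusted p = 0.843). The difference was −181 genes without the second mESC plate of condition 6. In condition 1 all 5 gastruloids (3743 to 4659 genes) exceeded both plates (3449 and 3658). In condition 5 all 5 (3855 to 4689.5) stayed under both plates (4980 and 4779), and in condition 6 all 5 (3996 to 5044.5) fell between the plates (5123 and 3675).

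The mitochondrial share of counts, often read as a sign of stressed or broken cells, was highest in the ESLIF-only mESCs. The plates of condition 1 had medians of 6.51% and 7.99%, those of condition 5 had 4.50% and 4.86%, and those of condition 6 had 4.93% and 5.43%. Gastruloid medians ran from 4.30% to 5.48%, so that gastruloids of condition 1 lay below and gastruloids of condition 5 above both of their plates. The mean was 5.70% ± 1.36 over the mESC cultures and 5.03% ± 0.358 over the gastruloids, and the difference of −0.678 points did not pass (exact permutation test, p = 0.157, adjusted p = 0.225). It was −0.432 points without the second mESC plate of condition 1. Cells had been kept up to 40% mitochondrial reads in mESCs and up to 20% in gastruloids, but only 12 of 2086 mESCs (0.575%) exceeded 20%, and with that limit for both the difference was −0.670 points.

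**Figure D3:**
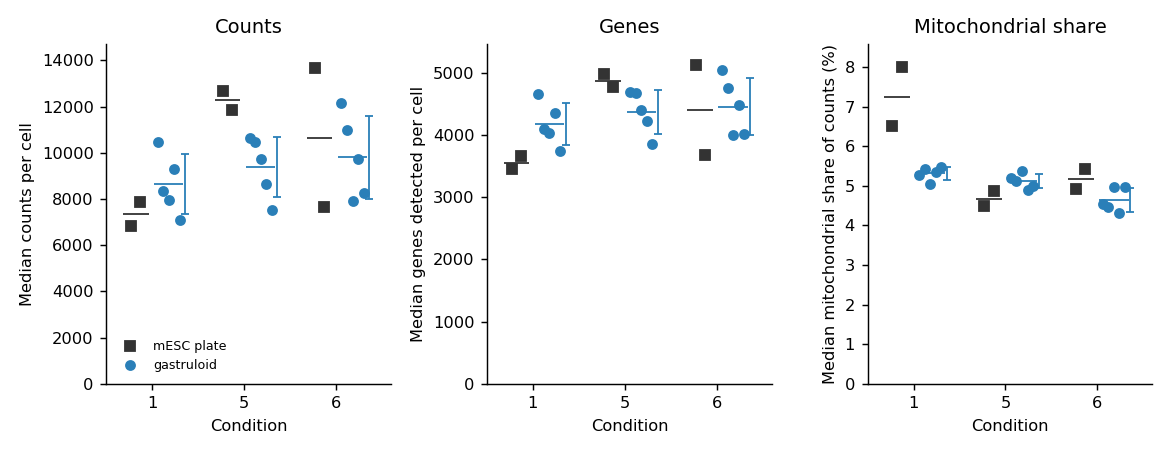
Median counts, median detected genes and median mitochondrial share per cell (y axes, from 0) for each mESC plate (black squares) and each gastruloid (blue circles) by condition (x axes), with means as lines and the SD of 5 gastruloids as bars. In counts and genes the gastruloids of condition 5 lie below both of their plates and those of condition 6 between them. In the mitochondrial share the plates of condition 1 stand above all gastruloids.

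At equal counts, more genes were detected in gastruloid cells than in mESCs. Each cell was set against a curve of genes on counts fitted to both groups with equal weight, over cells of 2000 to 32000 counts. The mESC plates lay below this curve, by −2.19% and −4.97% in condition 1, −0.311% and −1.32% in condition 5, and −1.42% and −2.75% in condition 6. The gastruloids lay above it, by 2.02% to 3.77% in condition 1, 1.71% to 3.29% in condition 5 and 1.06% to 3.30% in condition 6. No gastruloid overlapped with any plate. The difference was 4.61 percentage points (exact permutation test, p = 0.00926, adjusted p = 0.0185, higher in 15 of 15 gastruloids).

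In numbers of genes this gap was small. A cell of 8000 counts was predicted to have 3824 ± 71.5 genes in mESCs (n = 3 cultures) and 4002 ± 26.0 in gastruloids (n = 15), a difference of 178 genes. Plates spread over 3703 to 3912 genes and gastruloids over the narrower range of 3948 to 4055. Taken directly, cells of 7000 to 9000 counts had a median of 3672 to 4035 genes per plate (17 to 74 cells each) and 3897 to 4109 per gastruloid (35 to 79 cells each), and the difference of 182 genes did not pass (exact permutation test, adjusted p = 0.0556). The gap was also seen in each class from 2000 counts upwards: cells of 4000 to 8000 counts had 3348 ± 178 genes on mESC plates and 3461 ± 82.7 in gastruloids, and those of at least 16000 counts 5867 ± 224 and 6177 ± 84.2. In the class of 2000 to 4000 counts (2019.5 ± 140 and 2081 ± 107 genes) the gastruloid cells also had more counts, 3103 ± 218 against 3009 ± 267. Under 2000 counts the order turned, with 934 ± 206 genes on the plates and 769 ± 153 in the gastruloids, whose cells of this class also had fewer counts (1123 ± 300 and 898 ± 204).

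**Figure D4:**
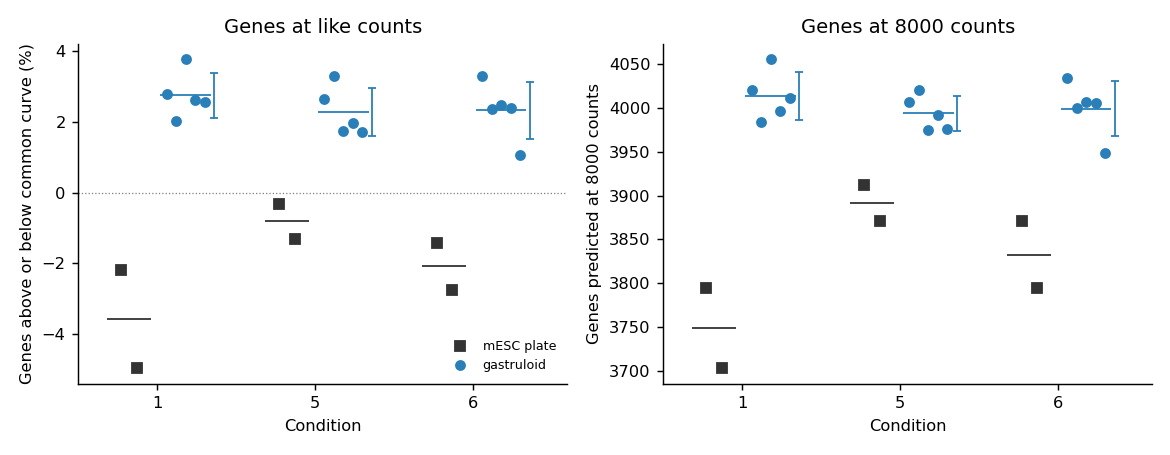
Left, percent by which a cell's detected genes lie above or below the common curve of genes on counts, as the median of each mESC plate (black squares) and gastruloid (blue circles). Right, genes predicted at 8000 counts by a curve of each plate or gastruloid, on an axis that does not start at 0. Lines are means and bars the SD of 5 gastruloids, and on both panels every gastruloid lies above every plate.

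The change from mESCs to gastruloids was next compared between conditions. In some measures condition 1 changed more than condition 5: the G2M share by −17.2 against −6.00 percentage points, and genes at like counts by 6.33 against 3.09 points. Condition 6 lay in between, with −11.9 and 4.41 points. The mean S score, in contrast, changed least in condition 1 (−0.00585, against −0.0231 in condition 5 and −0.0192 in condition 6). The mean G2M score changed by −0.0285, −0.0302 and −0.0308 in conditions 1, 5 and 6. The scores were not among the measures tested between conditions. The G1 change was similar in size in the 3 conditions, 5.22, 6.05 and 6.33 points. None of the 21 differences between conditions passed (exact permutation over 1512 relabellings, lowest adjusted p = 0.111). At an unadjusted p under 0.05 stood 4 of the 21, the lowest p being that of the mitochondrial share between conditions 5 and 6 (0.441 against −0.535 points, exact permutation test, p = 0.00529). Only technical plates stood for the mESC side of this test, so it does not cover differences between cultures.

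The main mESC states named by the authors held almost no G1 cells, and most of the mESCs in G1 belonged to a rare state. Ectoderm Priming cells, 643 of the 698 mESCs of condition 1, had 0 of 657 cells in G1 over the 3 conditions (an upper limit of 0.457%). Primed Pluripotency cells, 704 of 722 in condition 5 and 640 of 666 in condition 6, had 3 of 1382 in G1 (0.217%). Of 22 Endoderm Progenitors, in contrast, 9 were in G1 (40.9%, 95% Wilson interval 23.3% to 61.3%), which is 9 of the 13 mESCs in G1. Of 19 Mesoderm Progenitors 1 was in G1 (5.26%, 0.935% to 24.6%), an interval too wide to place this state between the others. The 2 main states also marked the conditions, so their G2M shares (56.5% in Ectoderm Priming and 45.4% in Primed Pluripotency) cannot be told apart from the medium.

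The gastruloid G1 cells were spread unevenly over the 11 cell types. Of 302 G1 cells, 99 belonged to Allantois, Endothelium and Neural Crest, 3 types that together made up 167 of 4637 gastruloid cells (3.60%). In pooled cells the G1 share was 64.6% in Allantois (96 cells, 95% Wilson interval 54.6% to 73.4%), the extraembryonic mesoderm that builds the umbilical vessels, and 45.2% in Endothelium (62 cells, 33.4% to 57.5%), the lining of blood vessels. All 9 Neural Crest cells were in G1 (70.1% to 100%). These intervals cover counting error only and not the spread between gastruloids. No gastruloid had 10 Endothelium or Neural Crest cells. The Endothelium G1 share per gastruloid ran from 0% (as in 1 with 5 cells) to 100% (as in 1 with 2 cells). In the other 8 types 203 of 4470 cells were in G1 (4.54%), with 1.01% to 8.03% per gastruloid. The 2 lowest gastruloids in that count lay within the range of the mESC plates, and the other 13 above it.

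Allantois cells stood apart in more than the phase. Of the 96, 91 had under 1% mitochondrial counts, and they made up most of the 99 such cells in all gastruloids. In the 4 gastruloids with at least 10 of them, all from condition 1, the median mitochondrial share was 0.250% to 0.370% and the median counts were 3252 to 6113. Their G1 share there was 63.6% to 80.0%. Without Allantois cells the overall G1 difference was 4.61 points and still passed (exact permutation test, adjusted p = 0.0185), and the S difference rose to 6.90 points and passed (exact permutation test, adjusted p = 0.0463). Cells with under 1% mitochondrial counts also occurred among the mESCs: 26 of 2086, of which 3 were in G1. Of these 26, 12 were Mesoderm Progenitors, a state of 19 mESCs with a median mitochondrial share of 0.561% and 6299 counts.

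Single cell types were set against the mESCs of the same condition where at least 10 cells per gastruloid were present. Clusters of the same transcriptomes from which the scores were read defined these types. Phase differences of a type are therefore not independent of how it was defined. None of 54 comparisons (9 types, 6 measures) passed after adjustment (exact permutation test, lowest adjusted p = 0.0536), although 20 had an unadjusted p under 0.05. With 4 to 15 gastruloids per type, the smallest p the design allows ran from 0.00926 to 0.400. With the 2 plates counted as 2 values, 22 comparisons passed, but these plates were technical replicates of a single culture. With at least 20 cells per gastruloid 17 passed, each at adjusted p = 0.0458 (exact permutation test). Allantois and Endoderm dropped out at that limit, which left 42 comparisons. Genes at like counts were higher than in mESCs in every gastruloid for the 6 types present in 13 or more gastruloids.

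Somite cells, which form the segments of the body axis, were the most abundant type (1111 cells) and the only one of the 9 compared types with a mean G2M share above that of the mESCs. Their G2M share was 65.5% ± 14.2 and their S share 30.9% ± 11.1 (SD, n = 15), against 48.8% and 50.6% in mESCs. The S share was lower in 15 of 15 gastruloids, by −19.7 points (exact permutation test, adjusted p = 0.0536), and the G2M share higher in 14 of 15, by 16.7 points (exact permutation test, adjusted p = 0.0833). The lowest and highest S shares were 0%, among 15 cells, and 46.3%. The G1 share was 3.63% ± 4.43, with 9 of 15 gastruloids above their mESCs (exact permutation test, adjusted p = 0.481), and median counts differed by −111 (adjusted p = 0.923).

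Early Somite cells (903), the step before, showed the opposite. Their S share was 80.0% ± 9.97 and their G2M share 12.5% ± 8.48 (SD, n = 15), the first above and the second below mESCs in 15 of 15 gastruloids, by 29.4 and −36.3 points (exact permutation test, adjusted p = 0.0536 each). Per gastruloid the S share ran from 63.7% to 100%, above every mESC plate, and the G2M share from 0% to 28.2%, below every plate. The G1 share was 7.55% on average, from 0% to 13.5%, and higher in 14 of 15 (exact permutation test, difference 6.93 points, adjusted p = 0.0667). Early Somite cells also had the fewest counts of the 6 types present in 13 or more gastruloids, 7372 ± 1652, a difference of −2721 from mESCs (exact permutation test, adjusted p = 0.105).

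Presomitic Mesoderm (563 cells), the tissue from which somites are cut, was nearer to the mESCs. In 13 gastruloids its G2M share was 37.8%, a difference of −10.9 points that was negative in all 13 (exact permutation test, adjusted p = 0.0536). The S share of 59.7% was 9.08 points above mESCs (higher in 12 of 13, exact permutation test, adjusted p = 0.143). The G1 share of 2.47% and the counts (a difference of 20.5) had adjusted p-values of 0.536 and 1.00 in the same test. Of these 3 mesoderm types, Early Somite had the highest and Somite the lowest S share, with mESCs between Presomitic Mesoderm and Somite.

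**Figure D5:**
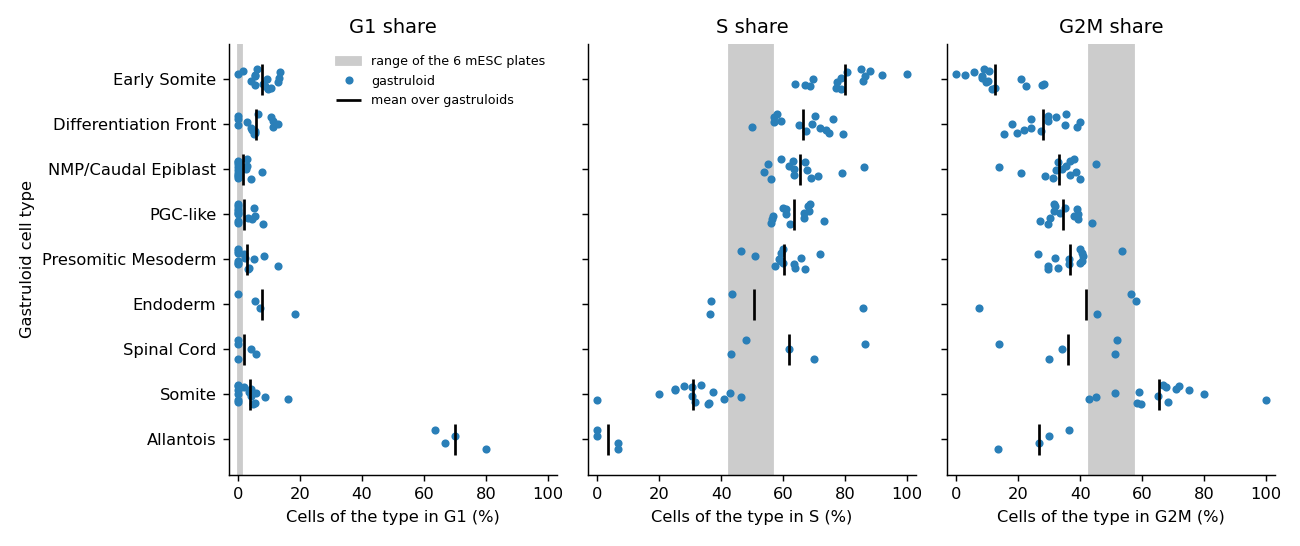
Percent of the cells of each type in G1, S and G2M (x axes) in each gastruloid with at least 10 such cells (blue circles), with the mean over gastruloids as a black line and the range of the 6 mESC plates as a grey band. Types are ordered by pooled S share. Early Somite lies right of the band in S and left of it in G2M in all 15 gastruloids, Somite lies left of it in S in 13 of 15 and right of it in G2M in 12 of 15, and Allantois alone reaches G1 shares above 60%.

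Of the remaining types, PGC-like cells, resembling the precursors of eggs and sperm (419 cells), had the highest share of cells with both scores above 0, 86.6% against 76.1% in Somite as the next. Over 13 gastruloids they had a G1 share of 1.99% ± 2.84 and median counts of 11698 ± 1574. NMP/Caudal Epiblast cells, the bipotent progenitors of the tail end, had the lowest pooled G1 share (0.945% of 529 cells, 95% Wilson interval 0.404% to 2.19%). Their S share was 65.2% and the G2M share 33.4% in 14 gastruloids. The Differentiation Front (467 cells) had 66.4% in S and 28.1% in G2M. Spinal Cord (344 cells) and Endoderm (134 cells) had 10 cells in only 5 and 4 gastruloids, where the exact permutation test cannot go below p = 0.333 and 0.167. Their pooled S shares were 52.0% and 54.5%. Of the Spinal Cord cells, 178 came from a single gastruloid with 43.3% in S. Over the 5 gastruloids, all of condition 1, the mean Spinal Cord S share was 61.9% ± 17.4. It was higher in all 5 than the 42.8% of the mESCs of condition 1. The mean over the 4 gastruloids was 50.6% ± 23.6 for Endoderm.

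Within a gastruloid the types were compared with all other cells of the same plate, where table, plate and dissociation are shared. The types were defined by clustering the same transcriptomes from which the scores were read, so the p-values tell how steadily a difference recurred over gastruloids and are no independent test of it. Of 24 comparisons 16 passed. Early Somite cells had an S share higher by 28.1 ± 12.7 points (SD, n = 15) and median counts lower by −2463 ± 876, in 15 of 15 gastruloids each (exact sign-flip test, adjusted p = 0.000293). Somite cells had a G2M share higher by 36.3 ± 14.1 points and an S share lower by −32.7 ± 11.5 points, again in 15 of 15 (exact sign-flip test, adjusted p = 0.000293). They had 823 more counts than the rest (exact sign-flip test, adjusted p = 0.0434), and this last call was lost with at least 20 cells per gastruloid (658 counts).

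G1 cells were fewer than in the rest of the same gastruloid in 4 of the 6 types, where the rest included the Allantois, Endothelium and Neural Crest cells with 99 of the 302 G1 cells. The G1 share of NMP/Caudal Epiblast cells was lower by −5.74 ± 3.01 points in 14 of 14 gastruloids (exact sign-flip test, adjusted p = 0.000488). In PGC-like cells it was lower by −5.17 ± 3.22 points in 12 of 13 (exact sign-flip test, adjusted p = 0.00220), in Presomitic Mesoderm by −3.94 ± 4.94 in 11 of 13 (adjusted p = 0.0281), and in Somite by −3.61 ± 4.05 in 13 of 15 (adjusted p = 0.0103). NMP/Caudal Epiblast and PGC-like cells also had more counts, by 1375 ± 1120 and 2473 ± 1038 (exact sign-flip test, adjusted p = 0.00264 and 0.000837). Early Somite G1 shares were not set apart from the rest (1.33 points, exact sign-flip test, adjusted p = 0.296).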

How the data were processed

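Single cells of 6 mESC plates and 15 gastruloids had been sorted into 384-well plates, sequenced by CEL-seq2 and processed by the authors with cutadapt 4.1 and STAR 2.5.3a (GRCm38 with masked strain differences), per the submitters' notes and the paper, followed by featureCounts, removal of duplicates and Scanpy. Per the paper, cells with under 500 reads or 100 genes were removed, while the deposited tables still hold 24 gastruloid cells and 10 mESCs with under 500 counts, which were kept. The deposited counts per cell (n_counts) are raw totals, the deposited mitochondrial value is a fraction, here given in percent, and the S and G2M score deposited by the authors has no unit. The deposited sequencing report gives a count of reads per mESC library, and 3 library names in it matched no sample and were not used. Cell types are the authors' annotation, made after counts, mitochondrial share and phase were regressed out. The names of 7 types and 3 states were matched to those of the paper by equal cell numbers.

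Shares, medians and mean scores were computed per plate or gastruloid, with 261 to 348 cells per gastruloid and 307 to 365 per plate. No cell name was held by more than 1 cell and 0 cells had the counts, genes and mitochondrial share of a cell of another library. Without gene-level counts, cells were neither thinned nor tested for doublets. The 2 plates of a condition were averaged to 1 culture, and gastruloids and cultures were exchanged within conditions in an exact two-sided permutation test. Benjamini-Hochberg adjusted p-values under 0.05, over the 10 overall measures or over each family of type or condition tests, were called. Genes at like counts were deviations from a cubic curve on log10 scales. The planned ratio of G2M to G1 counts was replaced by that of G2M to S counts after the data were seen, since plates held 0 to 4 G1 cells. All types were named, with full values for the 3 with most cells, since no type had a called G1 difference. Tests were run on simulated normal values of equal spread, so a spread that differs between cultures and gastruloids was not checked. Members, measures and tests were chosen with earlier results of these data known. Python 3.11.15, numpy 2.4.6, pandas 2.3.3 and SciPy 1.17.1 were used.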

Additional observations from a re-analysis of the deposited data

Results flagged for a closer look

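Detected genes and the mitochondrial share changed in opposite directions in conditions 1 and 5. All 5 gastruloids of condition 1 had more genes per cell than both of their mESC plates and all 5 of condition 5 had fewer, so that the changes (626 and −508 genes) differed by 1134 genes. This difference did not pass (exact permutation of condition labels, p = 0.270, adjusted p = 0.575). Median counts changed by 1276 and −2871 in the same conditions. The mESC plates of condition 1 also had fewer reads (17168972 and 19483881) than those of condition 5 (33416237 and 30832460). The part of counts and reads in the result was not tested.

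The mitochondrial share was lower in all 5 gastruloids of condition 1 than in both plates (−1.94 points) and higher in all 5 of condition 5 (0.441 points), a difference of −2.38 points (exact permutation of condition labels, p = 0.313, adjusted p = 0.575). It too lay mainly between the plates (means of 7.25% and 4.68%, against 5.31% and 5.12% in gastruloids), where this test could hardly pass. No single gastruloid stood far from the other 4 of its condition in any of 30 comparisons by Dixon's criterion, which about 1 in 20 groups meet by chance.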

How the results depend on the processing

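With 1 plate or gastruloid left out at a time, the G1 difference was 5.68 to 6.10 points, G2M −12.4 to −11.0, the S score −0.0169 to −0.0152, the G2M score −0.0303 to −0.0294, genes at like counts 4.15 to 5.07, and all 5 still passed. S ranged from 5.06 to 6.63 points and passed in 1 of 21 cases, without the first plate of condition 5 (6.19). Counts ranged from −1819 to 191, genes from −181 to 301, and the mitochondrial share from −0.923 to −0.432. The S difference also passed with at least 1% mitochondrial counts (6.99), 2 plates as 2 values (5.84), equal weight for cell types (7.61), and, both chosen after seeing the data, without Allantois cells (6.90) and with G1 below −0.01 (8.31). It was 3.20 with G1 below 0.01, 5.08 without PGC-like cells and 2.77 among cells of 4000 to 16000 counts, and did not pass (adjusted p = 0.450, 0.170 and 0.613, exact permutation test). G2M was lost among cells of 4000 to 16000 counts (−8.69), and genes at like counts as genes of cells of 7000 to 9000 counts (182); the cause was not tested. The ratio of G2M to S counts turned to −0.0199 with means over cells and −0.000929 with equal weights. With the condition as unit (3 values, smallest p 0.25) nothing could pass (5.87, −11.7, −0.0161, −0.0298 and 4.61). Replicate numbers mark technical plates in mESCs and single gastruloids otherwise, and same-numbered pairs deviated the same way in 5 or 6 of 10 measures per condition. A replicate block of 6 such pairs (exact sign-flip test, smallest p 0.0313, adjusted 0.0521) could not pass either and gave 5.10, −12.6, −0.0140, −0.0300 and 4.90, with counts turned to 409. Calls of types against mESCs were 0, but 17 of the 42 tests left with at least 20 cells and 22 with 2 technical plates as 2 values. They were 0 among cells of 4000 to 16000 counts or by Bonferroni. Somite counts against the rest were lost at 658 and 512 (4000 to 16000 counts).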
